A study of Mus musculus with 7 samples.

Results

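The 33 genes described here encode the enzymes and carriers of glycolysis and well-known targets of the response to low oxygen. They were chosen by symbol, and each symbol was matched to its Ensembl mouse identifier in the table of raw gene counts. All 33 of them were found among the 54532 genes of that table, and all 33 were among the 13784 genes with enough counts to test. They comprised 3 glucose and lactate transporters, 16 glycolytic enzymes, 3 regulators of glycolytic flux, 10 other hypoxia targets and the transcription factor subunit gene Hif1a.

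RNA was sequenced from PanMeso cells, mouse mesothelial cells of pancreatic origin that carry eGFP in every group. The parental group (n = 3) consisted of cells in culture, kept at 33 °C in medium 199 with 870 nM insulin, 3.3 nM epidermal growth factor and 400 nM hydrocortisone, and moved to 37 °C for 3 days before use. The other groups were eGFP-positive cells obtained by flow sorting from orthotopic pancreatic tumours, which had been started from PanMeso cells together with a pancreatic cancer line, BMFA3 in 2 libraries and CT1BA5 in the remaining 2. The labels name no age, sex or strain of the host mice and no genotype of the cancer lines. The labels list this culture protocol for every library, as the state of the cells before experiments. Growth in a tumour and the sorting step came together in both tumour groups and cannot be told apart. The labels do not say whether replicates were separate cultures or tumours, so p-values measure only the spread between these libraries, which may be technical.

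Glycolysis splits glucose into pyruvate in the cytosol, and lactate dehydrogenase can turn the pyruvate into lactate, which leaves the cell through monocarboxylate carriers. When oxygen is scarce, the alpha subunits of hypoxia-inducible factor (HIF) escape the prolyl hydroxylases that mark them for destruction, pair with ARNT and bind DNA at short motifs near their targets. Most glycolytic genes are such targets, but many of them also respond to growth factors, MYC and mTOR signalling, and HIF-1 alpha is regulated mainly as a protein.

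The 3 parental libraries held 10096839 to 19210598 counts, those from BMFA3 tumours 14792189 to 16501058 and those from CT1BA5 tumours 14327365 to 16981596. The 33 genes took 0.960 to 1.07% of all counts in cultured cells, 2.35 to 2.41% in the BMFA3 group and 1.91 to 2.04% in the CT1BA5 group, so these groups did not overlap. Levels are given as CPM, counts relative to the scaled library size, and differences as log2 fold changes. They were tested by quasi-likelihood in edgeR, with p-values adjusted by Benjamini-Hochberg over all genes tested. Mesothelial markers summed to 11729 to 12834 CPM in parental libraries, 2093 to 2098 CPM in the BMFA3 group and 941 to 961 CPM in the CT1BA5 group. Of 10 tested, 8 were lower in BMFA3 and 10 in CT1BA5 cells, against 29.9% and 35.1% of all genes, and none was higher. Msln had means of 5093, 624 and 409.5 CPM and Wt1 of 252, 257 and 118 CPM. Upk3b went from 2980 to 339 and 20.4 CPM, and Lrrn4 from 66.8 to 30.6 and 0.991 CPM. Among 18 leukocyte markers, 7 (Ptprc and Itgam included) were at 0 in every library, and their summed level was 24.9 to 31.9, 44.0 to 48.2 and 40.8 to 42.5 CPM in the same order. Of the 7 tested, 3 (42.9%) were higher in BMFA3 and 5 (71.4%) in CT1BA5 cells and none was lower. Over all genes 29.2% were called higher and 29.9% lower in BMFA3 cells, and 35.5% and 35.1% in CT1BA5 cells. Among the tested leukocyte markers Fcgr3 had means of 0.286, 2.79 and 8.37 CPM and Csf1r of 3.37, 8.29 and 5.57 CPM. S100a8 was at 0 in all parental libraries with 5.39 and 1.71 CPM in the tumours. Tumour epithelium markers summed to 60.5 to 77.5, 14.6 to 17.8 and 12.4 to 14.8 CPM, a sum carried mainly by Krt7 (means of 59.5, 7.47 and 11.5 CPM) and Cdh1 (11.6, 7.08 and 0.466 CPM). Muc1 was higher in BMFA3 cells (0.438 to 1.36 CPM) and Cldn4 in CT1BA5 cells (0.0491 to 0.920 CPM), while Epcam was at most 0.389 CPM. The endothelial markers summed to 96.6 to 105, 23.7 to 24.8 and 14.3 to 15.6 CPM, and the erythroid ones to at most 1.38 CPM. Nearly all of the endothelial sum was Kdr (means of 99.29, 23.35 and 14.57 CPM), and every other endothelial marker was at most 0.655 CPM in any library. Immediate early and dissociation genes summed to 530 to 556, 704 to 715 and 810 to 822 CPM, but of the 10 tested 4 were higher and 4 lower in BMFA3 cells and 5 higher and 4 lower in CT1BA5 cells. Junb had means of 93.2, 283 and 400.3 CPM, and Dusp1 of 76.6, 13.5 and 12.3 CPM. The share of counts on mitochondrially encoded genes was 0.416 to 0.466%, then 0.789 to 0.853%, then 0.936 to 1.04%, and that on ribosomal protein genes 4.38 to 5.05%, then 6.88 to 6.94%, then 8.55 to 9.86%. These measures moved with the groups, as the genes below did, and their part in the results was not tested. In bulk samples, fewer cells of a type and less RNA per cell cannot be told apart.

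Cells from either tumour had more RNA of most of these genes than the cultured cells. Against parental cells, 29 of the 33 were higher in BMFA3 cells, 1 was lower and 3 did not pass the test (edgeR, adjusted p under 0.05). The test called 59.0% of all genes in that comparison, with 29.2% higher and 29.9% lower. In CT1BA5 cells 25 were higher, 6 were lower and 2 did not pass, where 70.7% of all genes were called, 35.5% higher and 35.1% lower. Over all genes tested the median log2 fold change was 0.0047 in BMFA3 and -0.0005 in CT1BA5 cells, and over the 33 genes it was 1.13 and 1.11. Changes of over 2-fold upward were seen in 19 members in BMFA3 and 18 in CT1BA5 cells, against 9.54% and 13.3% of all genes. The libraries of the 2 groups did not overlap for 30 members in the first comparison and 31 in the second, against 73.8% and 78.4% of all genes. Both comparisons used the same 3 parental libraries, so they are given side by side and not as independent evidence.

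**Figure D1:**
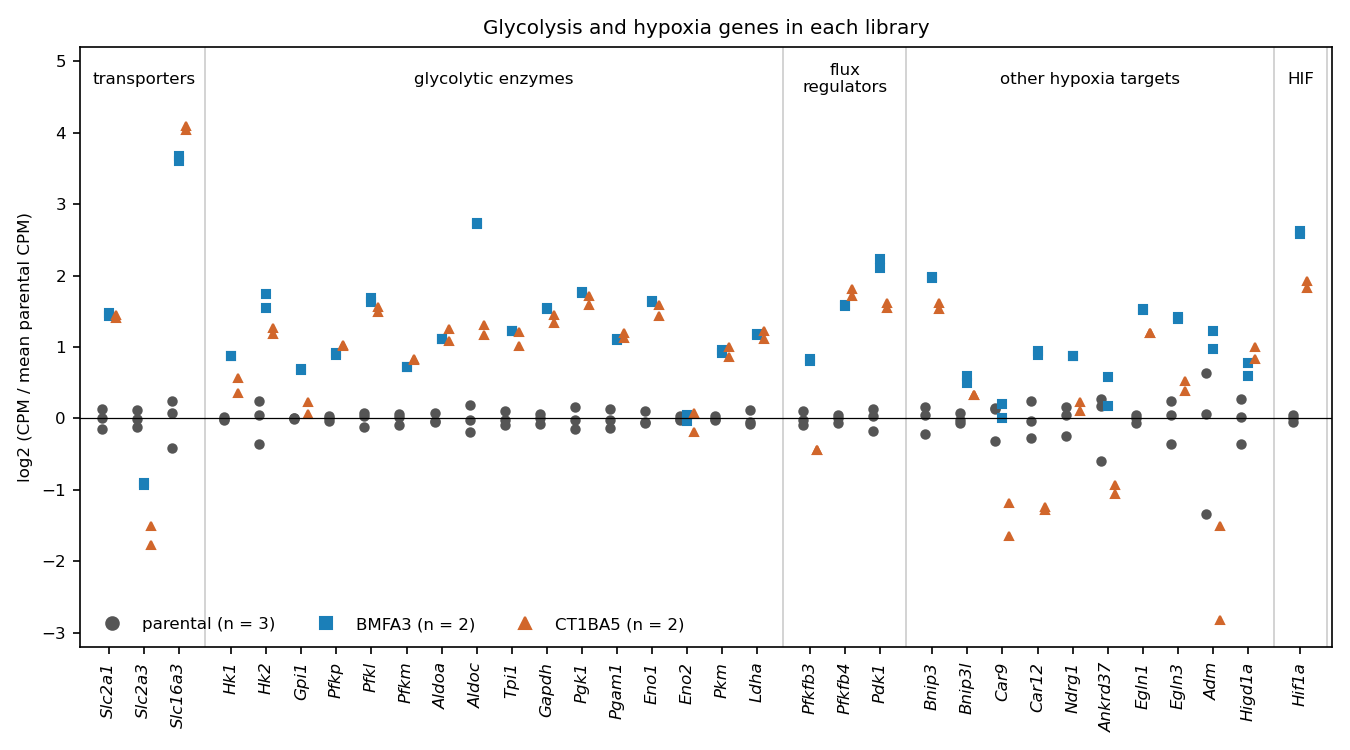
Log2 ratio of CPM to the mean parental CPM for each of the 33 genes, ordered along the horizontal axis by role, with 1 point per library (circles parental, squares BMFA3, triangles CT1BA5). Most tumour libraries lie above 0, whereas Slc2a3 lies below it in all 4, and Car9, Car12, Adm, Ankrd37 and Pfkfb3 lie below it in CT1BA5 libraries. Eno2 in all tumour libraries and Gpi1 in CT1BA5 libraries lie near 0. Scaled by library size alone, which is not drawn, the log2 change of Gpi1 in CT1BA5 cells was -0.09.

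Promoter letters were read for the members with a RefSeq window, which spans 250 bases before to 50 after a start. Windows were found for 30 of the 33 genes (GRCm38.p6; Slc2a3, Bnip3l and Ndrg1 are named only), taking for each the window nearest the annotated 5′ end. The letters searched were the HIF core ACGTG and the variant GCGTG, on both strands, so that a palindromic CACGTG counts as 2 matches. ACGTG was in 17 of 30 windows (56.7%) and either motif in 23 (76.7%), against 19.6% and 43.8% of all 32851 windows and 25.7% and 63.3% of 10231 windows of tested genes. The windows of tested genes were the first listed for each gene, not the nearest, and the set of all windows can hold several of a gene. Among glycolytic enzymes 7 of 16 held ACGTG and 10 either motif (62.5%, near the share in tested genes). Among other hypoxia targets these were 6 and 7 of 8. The median GC content was 63.5% in members' windows, 61% in tested genes and 52.7% in all windows, and both motifs are GC-rich. A match is a description of the letters and not a bound site. A pair of enzymes and a pair of other targets are shown, as windows whose genes differed in the CT1BA5 response (Ldha rose alike in both tumours, Aldoc and Egln3 rose more in BMFA3, and Car12 moved in opposite directions). They are written 5′ to 3′ on the gene's strand, with motif letters in capitals.
Ldha (chr7:46845554-46845853, + strand, 7 matches): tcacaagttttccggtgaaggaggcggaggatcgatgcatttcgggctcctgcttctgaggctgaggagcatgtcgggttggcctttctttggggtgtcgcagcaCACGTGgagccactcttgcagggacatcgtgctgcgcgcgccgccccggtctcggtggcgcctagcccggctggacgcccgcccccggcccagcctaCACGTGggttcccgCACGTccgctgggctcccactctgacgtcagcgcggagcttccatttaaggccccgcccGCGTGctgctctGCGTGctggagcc
Aldoc (chr11:78322823-78323122, + strand, 3 matches): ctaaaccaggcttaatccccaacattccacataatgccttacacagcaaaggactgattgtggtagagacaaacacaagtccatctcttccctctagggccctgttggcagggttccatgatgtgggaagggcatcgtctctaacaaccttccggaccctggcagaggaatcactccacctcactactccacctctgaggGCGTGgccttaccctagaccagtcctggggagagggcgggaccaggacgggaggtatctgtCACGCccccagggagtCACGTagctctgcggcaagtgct
Egln3 (chr12:54203825-54204124, - strand, 1 match): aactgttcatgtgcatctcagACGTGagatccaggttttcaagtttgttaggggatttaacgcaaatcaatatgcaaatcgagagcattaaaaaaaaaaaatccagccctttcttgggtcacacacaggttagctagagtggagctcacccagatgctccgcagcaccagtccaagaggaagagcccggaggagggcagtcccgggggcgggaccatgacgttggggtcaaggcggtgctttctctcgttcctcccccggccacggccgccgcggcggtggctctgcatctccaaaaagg
Car12 (chr9:66713436-66713735, + strand, no match): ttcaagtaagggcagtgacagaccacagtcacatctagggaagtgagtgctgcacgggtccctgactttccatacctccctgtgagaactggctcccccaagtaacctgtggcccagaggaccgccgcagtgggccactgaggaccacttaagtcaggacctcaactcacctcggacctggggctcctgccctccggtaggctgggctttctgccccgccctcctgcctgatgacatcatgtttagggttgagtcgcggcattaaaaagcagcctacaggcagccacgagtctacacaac

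The widest change was in a carrier gene. Slc16a3 (chromosome 11, 120948480 to 120960868, GRCm38) encodes MCT4, the carrier through which glycolytic cells export lactate. Its level was 35.3, 22.4 and 31.5 CPM in the parental, 381 and 362 CPM in the BMFA3 and 489 and 508 CPM in the CT1BA5 libraries. Every tumour library thus lay far above every parental one, and the tumour groups did not overlap each other. The change was 12.5-fold in BMFA3 cells (log2 3.65 ± 0.11 SE, adjusted p = 7.47e-16, edgeR) and 16.8-fold in CT1BA5 cells (log2 4.07 ± 0.11, adjusted p = 5.94e-17, edgeR), the widest among the 33 genes in both. It was also the only member higher in CT1BA5 than in BMFA3 cells (log2 0.42 ± 0.11, edgeR adjusted p = 0.00381). That call was lost when libraries were scaled by size alone (adjusted p = 0.0608), with DESeq2 (0.111) and without BMFA3 replicate 2 (0.0531).

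Slc2a1 (chromosome 4, 119108711 to 119137983) encodes GLUT1, the widespread glucose importer. It stood at 144, 118 and 132 CPM in parental, 368 and 356 CPM in BMFA3 and 349 and 359.9 CPM in CT1BA5 libraries. Both tumour groups were clear of the parental one and overlapped each other. Log2 changes were 1.46 ± 0.073 and 1.43 ± 0.073 (SE; edgeR adjusted p = 1.35e-12 and 9.1e-13). Between the tumours the log2 difference was -0.03, with a 95% interval from -0.20 to 0.14.

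Slc2a3 (chromosome 6, 122727809 to 122801640), the gene of the high-affinity glucose importer GLUT3, went the other way. Parental libraries had 68.0, 73.7 and 80.0 CPM, BMFA3 libraries 38.7 and 39.6 CPM and CT1BA5 libraries 25.9 and 21.6 CPM. The 3 groups were fully separate, in that order. It was the only member lower in BMFA3 than in parental cells (log2 -0.92, edgeR adjusted p = 3.25e-08), and its log2 change in CT1BA5 cells was -1.64 (adjusted p = 9.01e-12). Per kilobase of exon, Slc2a3 made up 21.5% ± 2.52 of the RNA of the pair Slc2a1 and Slc2a3 in parental cells, 4.97% ± 0.190 in BMFA3 and 3.15% ± 0.465 in CT1BA5 cells (SD; n = 3, 2 and 2).

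Another monocarboxylate carrier separated the 2 tumours. Slc16a1 encodes MCT1, which moves lactate in either direction and belonged to the list of other glycolysis and pyruvate genes rather than to the 33. It was at 149, 164 and 163 CPM in parental, 528 and 536 CPM in BMFA3 and 63.5 and 68.1 CPM in CT1BA5 libraries. BMFA3 cells were above and CT1BA5 cells below the parental range. Its log2 change was 1.74 ± 0.065 in BMFA3 cells (edgeR adjusted p = 1.53e-14) and -1.27 ± 0.071 in CT1BA5 cells (adjusted p = 3.92e-12), and the difference between the tumours was -3.02 ± 0.079 (adjusted p = 2.04e-16).

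**Figure D2:**
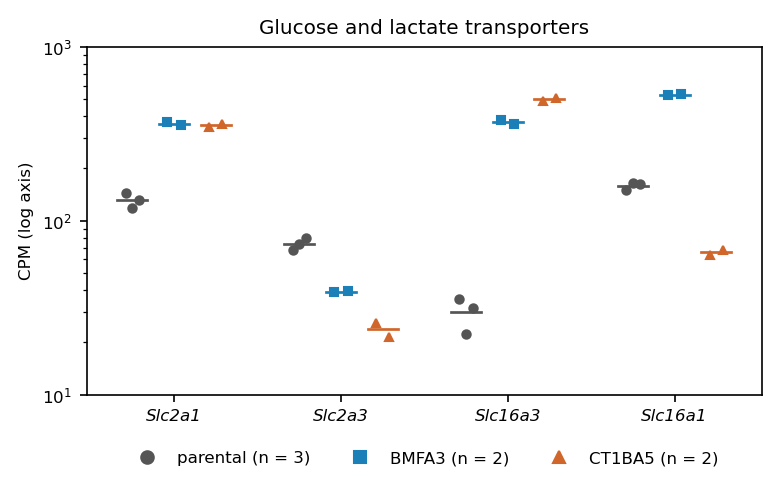
CPM on a log axis of the carrier genes Slc2a1, Slc2a3, Slc16a3 and Slc16a1, 1 point per library, with a line at each group's mean. Slc2a1 and Slc16a3 are high in both tumours, Slc2a3 is low in both, and Slc16a1 is high in BMFA3 (528 and 536 CPM) and low in CT1BA5 libraries (63.5 and 68.1 CPM).

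Of the 16 glycolytic enzyme genes, 15 rose in BMFA3 and 15 in CT1BA5 cells, with medians of 1.14 and 1.17 on the log2 scale, and Eno2 alone did not pass in either. Of all genes tested, 29.2% were called higher in BMFA3 and 35.5% in CT1BA5 cells, with medians of 0.0047 and -0.0005. The CT1BA5 count includes Gpi1, a call lost under most alternatives. With libraries scaled by size alone, in CT1BA5 cells Gpi1 was at -0.09 and Eno2 was lower at -0.27. Their summed level was 8258 to 8968 CPM in parental libraries, 20697 to 20773 CPM in the BMFA3 group and 18691 to 20399 CPM in the CT1BA5 group. The tumour libraries were all more than 2-fold above the parental ones in that sum. No enzyme fell in either comparison under the TMM scaling used here.

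The upper part of the pathway, which uses ATP, began with the hexokinases that trap glucose in the cell. Hk2 (chromosome 6, 82725025 to 82774454), the inducible isozyme, was at 28.0, 18.3 and 24.2 CPM in parental, 78.8 and 68.5 CPM in BMFA3 and 56.6 and 53.3 CPM in CT1BA5 libraries. Its groups did not overlap. Log2 changes were 1.65 ± 0.11 in BMFA3 and 1.23 ± 0.12 in CT1BA5 cells (SE; edgeR adjusted p = 1.87e-10 and 1.29e-08). The constitutive Hk1 rose by 0.88 and 0.47. Gpi1, which makes fructose 6-phosphate, rose by 0.69 in BMFA3 cells. Its change in CT1BA5 cells was 0.15 (edgeR adjusted p = 0.047), a call lost under most alternatives.

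Phosphofructokinase commits the sugar to glycolysis. Its liver-type gene Pfkl went from 108 ± 7.59 CPM in parental to 342 ± 8.22 CPM in BMFA3 and 312 ± 10.3 CPM in CT1BA5 cells (SD; n = 3, 2 and 2), log2 changes of 1.66 and 1.53. The platelet-type Pfkp rose by 0.91 and 1.02 and the muscle-type Pfkm by 0.72 and 0.82. Pfkp shares 748 exon bases with Pitrm1 on the opposite strand, and as the strand used in counting is not stated, its level is uncertain to that extent. Aldoa, the main aldolase gene, rose by 1.11 and 1.17, and Tpi1, which interconverts the triose phosphates, by 1.22 and 1.11.

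Aldoc (chromosome 11, 78322968 to 78327781), an aldolase gene best known from the brain, had the widest change among the enzymes in BMFA3 cells. It was at 8.84, 7.86 and 10.2 CPM in parental, 59.5 and 59.9 CPM in BMFA3 and 20.1 and 22.3 CPM in CT1BA5 libraries. The groups were separate, with CT1BA5 between the others. Log2 changes were 2.72 ± 0.11 and 1.22 ± 0.12 (SE; edgeR adjusted p = 5.7e-14 and 2.75e-08), and CT1BA5 cells were 2.82-fold below BMFA3 cells (log2 -1.496 ± 0.11, adjusted p = 1.89e-09).

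In the lower part of the pathway, which yields ATP, all genes but Eno2 rose. Gapdh, the triose phosphate dehydrogenase gene, rose by 1.54 and 1.39, Pgam1, a phosphoglycerate mutase gene, by 1.10 and 1.16, and Eno1, the common enolase gene, by 1.64 and 1.51. Pgk1 (chromosome X, 106187100 to 106203699) encodes the first ATP-forming kinase of the pathway. It was at 578, 466 and 511 CPM in parental, 1768 and 1760 CPM in BMFA3 and 1556 and 1701 CPM in CT1BA5 libraries. All tumour libraries exceeded all parental ones, with log2 changes of 1.77 ± 0.077 and 1.65 ± 0.077 (edgeR adjusted p = 1.6e-13 and 1.99e-13).

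Pkm (chromosome 9, 59656368 to 59679375) encodes the muscle pyruvate kinases PKM1 and PKM2, which counts per gene do not tell apart. Its level was 1664, 1602 and 1614 CPM in parental, 3169 and 3057 CPM in BMFA3 and 2964 and 3268 CPM in CT1BA5 libraries. The tumour groups overlapped each other and lay clear of the parental group. Its log2 change was 0.94 ± 0.055 in both tumours (edgeR adjusted p = 1.91e-11 and 8.93e-12).

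Ldha (chromosome 7, 46841475 to 46855627) encodes the lactate dehydrogenase subunit that favours lactate. Libraries had 1036, 910.0 and 922 CPM in parental, 2157 and 2161 CPM in BMFA3 and 2072 and 2239 CPM in CT1BA5 cells. Again the tumour groups overlapped each other only. Log2 changes were 1.18 ± 0.065 and 1.17 ± 0.065 (edgeR adjusted p = 6.22e-12 and 3.11e-12), and between the tumours the 95% interval of the difference ran from -0.15 to 0.15. Its promoter window, printed above, held 7 motif matches.

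Eno2, the enolase gene best known from neurons, was the exception among the enzymes. It was at 20.4, 20.3 and 20.99 CPM in parental, 21.2 and 20.0 CPM in BMFA3 and 21.8 and 18.1 CPM in CT1BA5 libraries. All 3 groups overlapped. The 95% interval of its log2 change was -0.23 to 0.24 in BMFA3 and -0.28 to 0.20 in CT1BA5 cells.

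Within isozyme families the make-up shifted, measured as shares of CPM per kilobase of exon in each library (mean ± SD; n = 3, 2 and 2). Hk2 held 30.4% ± 4.48 of hexokinase RNA (Hk1 and Hk2) in parental, 42.8% ± 2.43 in BMFA3 and 42.8% ± 1.33 in CT1BA5 cells. Pfkl held 48.8% ± 2.58, 63.9% ± 0.640 and 60.0% ± 0.682 of phosphofructokinase RNA, while the Pfkm share went from 39.1% to 26.8% and 29.5%. Aldoc stayed a small part of aldolase RNA, at 0.754% ± 0.115, 2.28% ± 0.0174 and 0.790% ± 0.00590, with both CT1BA5 libraries inside the parental range. The Eno2 share of enolase RNA went from 2.35% to 0.766% and 0.815%. These shares depend on the length used for each gene, which moved levels but not the order of parental against tumour group means.

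**Figure D3:**
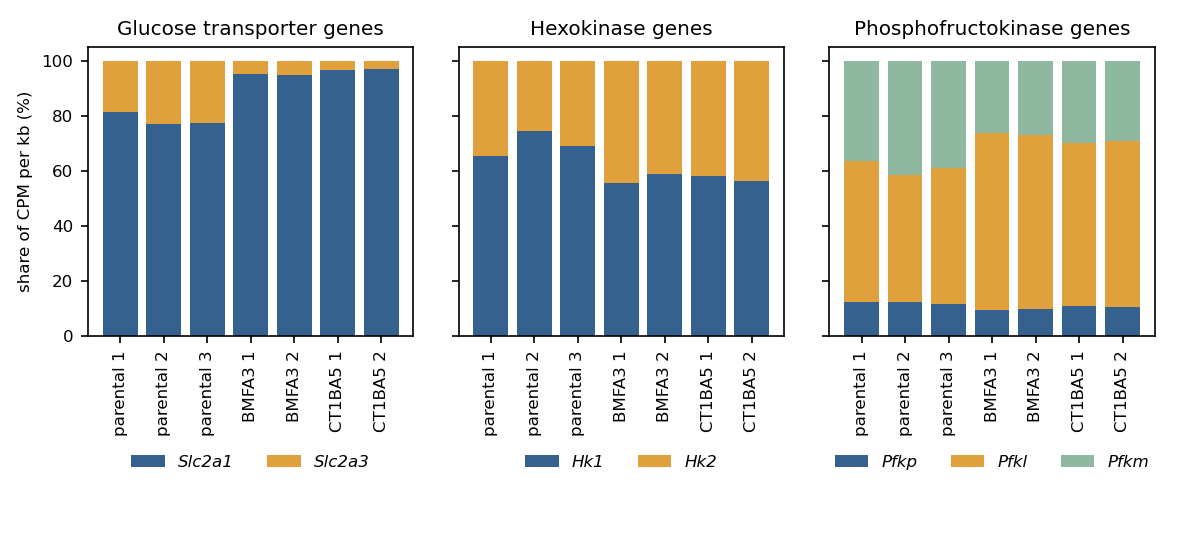
Stacked bars of the share of each gene in its family, in percent of CPM per kilobase of exon, with 1 bar per library, for the glucose transporter, hexokinase and phosphofructokinase genes. In every tumour library Hk2 and Pfkl hold more of their families than in any parental library, and Slc2a3 holds less.

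Regulators of flux act on the pathway without carrying it. Pfkfb3 (chromosome 2, 11471433 to 11554077) and Pfkfb4 make and break fructose 2,6-bisphosphate, the activator of phosphofructokinase. Pfkfb3 had 24.9, 26.2 and 28.5 CPM in parental, 46.3 and 47.2 CPM in BMFA3 and 19.5 and 19.6 CPM in CT1BA5 libraries. BMFA3 lay above and CT1BA5 below the parental range. Log2 changes were 0.81 ± 0.091 in BMFA3 cells (edgeR adjusted p = 2.55e-07) and -0.45 ± 0.10 in CT1BA5 cells (adjusted p = 0.000592), and -1.26 ± 0.11 between the tumours (adjusted p = 7.44e-09).

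Pfkfb4 (chromosome 9, 108991778 to 109032228) rose in both tumours. It was at 4.60, 4.37 and 4.71 CPM in parental, 13.8 and 13.6 CPM in BMFA3 and 16.0 and 14.9 CPM in CT1BA5 libraries. Both tumour groups were above the parental one, by 1.58 and 1.76 ± 0.15 on the log2 scale (edgeR adjusted p = 2.57e-08 and 2.78e-09). Pdk1 encodes a kinase that switches off pyruvate dehydrogenase and so keeps pyruvate out of the tricarboxylic acid cycle. It was at 41.3, 35.6 and 44.1 CPM in parental, 173 and 189 CPM in BMFA3 and 124 and 118 CPM in CT1BA5 libraries. The groups were separate, with log2 changes of 2.16 ± 0.081 and 1.58 ± 0.082 (SE; edgeR adjusted p = 1.66e-14 and 1.33e-12).

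The 10 other hypoxia targets mostly rose in BMFA3 cells and were divided in CT1BA5 cells. In BMFA3 cells 8 rose, none fell and 2 (Car9 and Ankrd37) did not pass, with a median log2 change of 0.89. In CT1BA5 cells 5 rose (Bnip3, Bnip3l, Egln1, Egln3 and Higd1a), 4 fell (Car9, Car12, Ankrd37 and Adm) and Ndrg1 did not pass, with a median of 0.25. With library size alone Bnip3l and Egln3 did not pass, which left 3 that rose. Their summed level was 450.1 to 541 CPM in parental libraries, 1019 to 1024 CPM in the BMFA3 group and 785 to 806 CPM in the CT1BA5 group.

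Bnip3 and Bnip3l encode mitochondrial receptors of mitophagy. Bnip3 rose from 53.0 ± 6.93 to 209 ± 1.48 CPM in BMFA3 and 157 ± 6.64 CPM in CT1BA5 cells, and Bnip3l by 0.55 and 0.33 on the log2 scale. The call for Bnip3l in CT1BA5 cells was lost with library size alone (log2 0.098, edgeR adjusted p = 0.214). Higd1a, a mitochondrial inner membrane gene, rose by 0.70 and 0.92 and was the only one of the 10 with a higher mean in CT1BA5 than in BMFA3 cells, a difference of 0.23 that did not pass (edgeR adjusted p = 0.136). Ndrg1, a stress-responsive gene, rose by 0.87 in BMFA3 cells, and its 95% interval in CT1BA5 cells was -0.02 to 0.37.

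Egln1 and Egln3 encode the HIF prolyl hydroxylases PHD2 and PHD3, which HIF itself induces. Egln1 rose from 63.5 ± 2.50 to 183 ± 2.37 CPM in BMFA3 and 146 ± 0.224 CPM in CT1BA5 cells (SD; n = 3, 2 and 2). Egln3 (chromosome 12, 54178981 to 54203860) was at 37.2, 24.4 and 32.6 CPM in parental, 82.2 and 83.7 CPM in BMFA3 and 45.2 and 41.2 CPM in CT1BA5 libraries. Here CT1BA5 lay between the other groups, above the parental range. Log2 changes were 1.41 ± 0.11 in BMFA3 (edgeR adjusted p = 1.17e-09) and 0.47 ± 0.12 in CT1BA5 cells (adjusted p = 0.00141), the second lost with library size alone.

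Car9 and Car12 encode membrane carbonic anhydrases that handle acid outside the cell. Car9 (chromosome 4, 43506966 to 43513729), a classical marker of hypoxic tumour tissue, was scarce, with 2.12, 2.91 and 2.89 CPM in parental, 3.05 and 2.65 CPM in BMFA3 and 0.841 and 1.17 CPM in CT1BA5 libraries. BMFA3 overlapped the parental range and CT1BA5 lay below it. Its log2 change was 0.09 in BMFA3 cells, with a 95% interval from -0.51 to 0.69, and -1.42 ± 0.35 in CT1BA5 cells (edgeR adjusted p = 0.0013). Car9 overlaps the gene Gm12454, and reads of the pair cannot be told apart where counting by strand is not stated.

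Car12 (chromosome 9, 66713686 to 66766845) had 14.5, 17.2 and 20.9 CPM in parental, 33.8 and 32.5 CPM in BMFA3 and 7.18 and 7.40 CPM in CT1BA5 libraries. BMFA3 lay above and CT1BA5 below the parental range. Log2 changes were 0.90 ± 0.12 (edgeR adjusted p = 3.74e-06) and -1.29 ± 0.15 (adjusted p = 3.48e-07), and CT1BA5 cells were 4.55-fold below BMFA3 cells (log2 -2.19 ± 0.16, adjusted p = 7.82e-10). Its window held no match, but neither did those of Hk1, Gpi1, Aldoa, Tpi1, Pkm and Eno2. All of these but Eno2 were called higher in both tumours. The windows of Car9, Adm and Ankrd37, the other hypoxia targets also lower in CT1BA5 cells, held 1, 2 and 4 matches. Any link between matches and changes was not tested.

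Adm, the gene of the vasodilator peptide adrenomedullin, was scarce. It had 2.58, 0.655 and 1.72 CPM in parental, 3.84 and 3.25 CPM in BMFA3 and 0.582 and 0.234 CPM in CT1BA5 libraries. Its groups did not overlap in CPM, but parental replicate 2 (0.655 CPM) and CT1BA5 replicate 1 (0.582 CPM) lay close together. In those libraries 3 counts equal 0.218 and 0.194 CPM. Log2 changes of Adm were 1.13 ± 0.38 (edgeR adjusted p = 0.0156) and -1.91 ± 0.57 (adjusted p = 0.00564). Both calls rested on few libraries: the first did not pass when parental replicate 2 (log2 0.77, adjusted p = 0.0773) or BMFA3 replicate 1 (adjusted p = 0.122) was left out, and the second without CT1BA5 replicate 2 (log2 -1.46, adjusted p = 0.0537). Ankrd37, an ankyrin repeat gene, had 3.50, 2.04 and 3.73 CPM in parental, 3.47 and 4.64 CPM in BMFA3 and 1.62 and 1.48 CPM in CT1BA5 libraries. It was lower in CT1BA5 cells (log2 -1.0008 ± 0.33, edgeR adjusted p = 0.0109), not so without parental replicate 3 (log2 -0.81, adjusted p = 0.0616), and it overlaps Ufsp2, a gene at 47.2 CPM, by 57 exon bases.

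Hif1a (chromosome 12, 73901375 to 73947530), the gene of HIF-1 alpha, rose in both tumours. Its level was 134.5, 143 and 139 CPM in parental, 831 and 854 CPM in BMFA3 and 529 and 492 CPM in CT1BA5 libraries. The 3 groups were separate, with BMFA3 highest. Log2 changes were 2.60 ± 0.063 in BMFA3 cells (6.07-fold, edgeR adjusted p = 2.24e-17) and 1.88 ± 0.062 in CT1BA5 cells (3.68-fold, adjusted p = 9.24e-16), and CT1BA5 was below BMFA3 by -0.72 ± 0.068 (adjusted p = 4.09e-08).

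Of 7 other genes of the HIF machinery, 2 (28.6%) were higher and 3 (42.9%) lower in BMFA3 cells, where 29.2% and 29.9% of all genes were called, so these counts are near the background. In CT1BA5 cells 1 was higher and 4 lower, where 35.5% and 35.1% of all genes were called. Between the tumours 5 were lower in CT1BA5 cells and none higher, where 25.3% of all genes were called lower and 25.5% higher. Epas1, the gene of HIF-2 alpha, had 8.28, 8.01 and 7.80 CPM in parental, 3.72 and 3.12 CPM in BMFA3 and 1.42 and 0.701 CPM in CT1BA5 libraries. Its groups were separate, with log2 changes of -1.22 and -2.87. Hif3a, which encodes a subunit that can restrain the others, had a parental mean of 26.4 CPM, against 7.74 CPM in BMFA3 and 2.67 CPM in CT1BA5 cells, log2 changes of -1.78 and -3.29. Arnt, the partner subunit gene, was at 0.27 and -0.14, the second not past the test, and its relative Arnt2 was at 0.30 and -0.28 with no call in either. For Vhl, the gene of the ubiquitin ligase subunit that recognises hydroxylated HIF alpha, the changes were 0.68 and 0.71. Hif1an, which encodes the asparaginyl hydroxylase FIH, was at 0.00 and -0.50, and Egln2, the remaining prolyl hydroxylase gene, at -0.25 and -0.39.

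**Figure D4:**
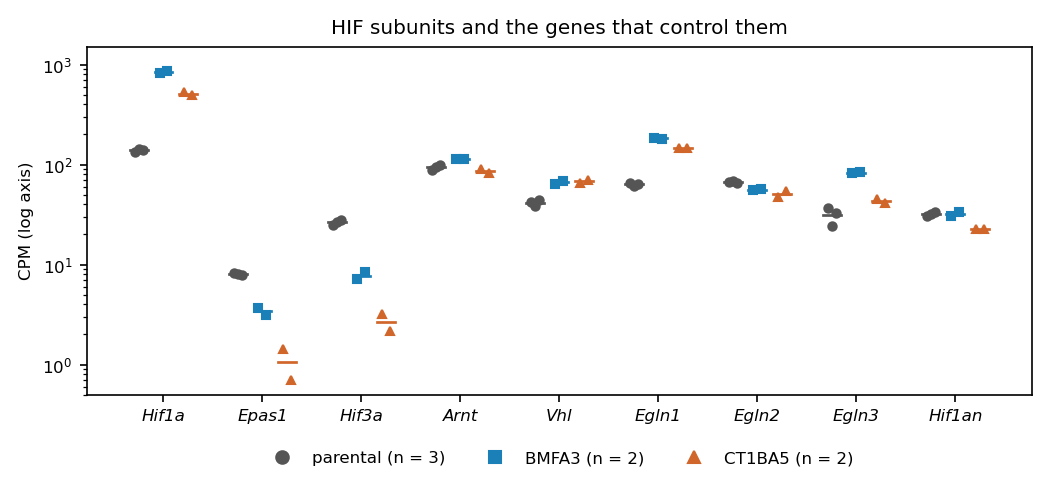
CPM on a log axis of the HIF subunit genes and the genes that control them, 1 point per library, with a line at each group's mean. Hif1a is highest in BMFA3 (831 and 854 CPM) and next in CT1BA5 libraries (529 and 492 CPM), while Epas1 and Hif3a are lowest in CT1BA5 libraries.

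Set against each other, the tumours differed in 9 of the 10 other hypoxia targets and in 5 of the 16 enzymes. Of the 33 genes, 1 was higher in CT1BA5 than in BMFA3 cells, 18 were lower and 14 did not pass the test, where 50.8% of all genes were called, 25.5% higher and 25.3% lower. No member was over 2-fold higher in CT1BA5 cells, against 4.91% of all genes, and 28 had groups that did not overlap, against 74.5%. Of 16 enzymes 5 were lower (Hk1, Hk2, Gpi1, Aldoc and Gapdh) and none higher, with a median of -0.11 on the log2 scale. For the 11 enzymes that did not pass, the 95% intervals of the log2 difference all lay between -0.30 and 0.26. Of the 10 other targets 9 were lower and none higher, with a median of -0.82, against -0.0061 over all genes. The lower calls ran from -0.21 for Bnip3l to -3.05 for Adm, with Car9 at -1.51, Ankrd37 at -1.38, Egln3 at -0.94, Ndrg1 at -0.70, Bnip3 at -0.41 and Egln1 at -0.33. The call for Gapdh (log2 -0.14, edgeR adjusted p = 0.04995) did not hold under RLE scaling or DESeq2, and that for Bnip3l (adjusted p = 0.0181) was lost without BMFA3 replicate 2 (adjusted p = 0.172). Likewise the call for Hk2 (log2 -0.42, edgeR adjusted p = 0.00587) was lost without BMFA3 replicate 1 (adjusted p = 0.101). No test over the members as a set was made.

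**Figure D5:**
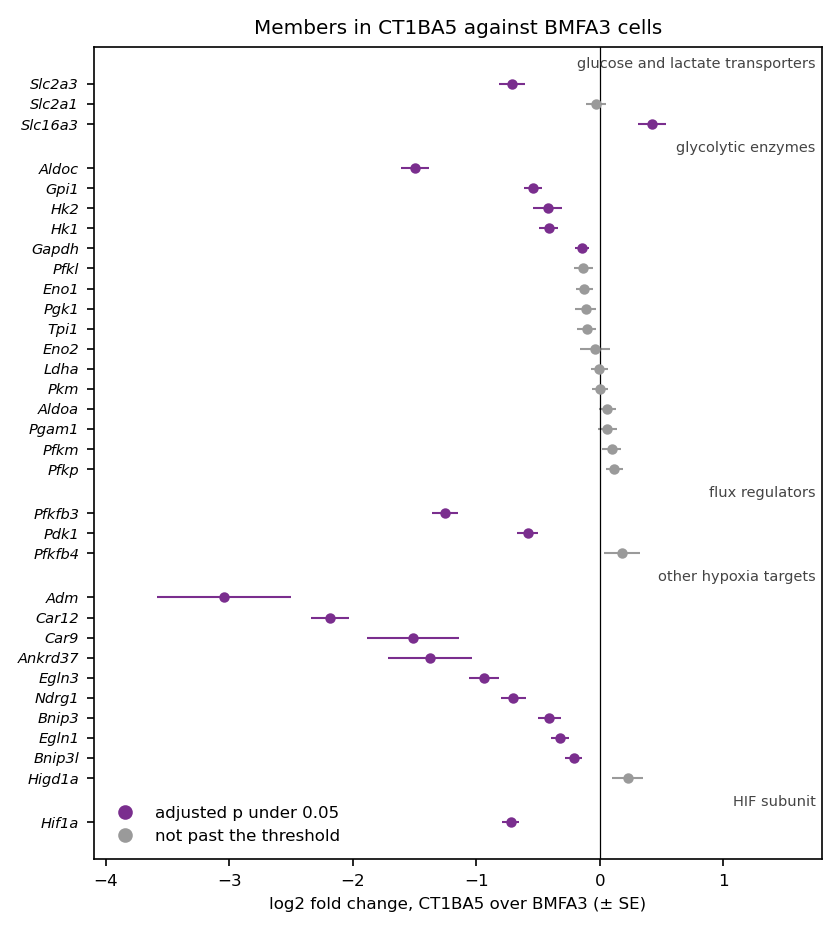
Log2 fold change of CT1BA5 over BMFA3 cells for each of the 33 genes, grouped by role and sorted within each group, with bars of 1 SE; purple points passed the adjusted p of 0.05 and grey ones did not. Most enzymes lie near 0, with Aldoc at -1.496, and 9 of 10 other hypoxia targets lie to the left of 0, down to -3.05 for Adm.

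A list of further hypoxia targets outside the 33 genes was divided between the tumours. Of 27 tested, 22 (81.5%) rose and 3 (11.1%) fell in BMFA3 cells (median 1.15). In CT1BA5 cells 21 (77.8%) rose and 5 (18.5%) fell (median 1.34). Over all genes 29.2% were called higher and 29.9% lower in BMFA3 cells, and 35.5% and 35.1% in CT1BA5 cells. Between the tumours 12 (44.4%) were higher in CT1BA5 cells and 11 (40.7%) lower (median 0.19), where 25.5% and 25.3% of all genes were called. Angptl4, a lipoprotein lipase inhibitor gene, went from a mean of 15.1 to 242 and 169 CPM in BMFA3 and CT1BA5 cells. Lox, a collagen cross-linking enzyme gene, was 3.22 higher in CT1BA5 than in parental cells on the log2 scale and 1.32 higher than in BMFA3 cells. In the other direction, Gbe1, the glycogen branching enzyme gene, had a parental mean of 20.4 CPM, against 51.1 CPM in BMFA3 and 15.1 CPM in CT1BA5 cells, and for Ero1l, an oxidoreductase gene of disulfide formation, those means were 139, 409.7 and 185 CPM. Wsb1, a ubiquitin ligase adaptor gene, fell by 0.70 and 0.87 on the log2 scale, Edn1, the endothelin-1 gene, by 0.73 in BMFA3 cells and Kdm3a, a histone demethylase gene, by 0.72 in CT1BA5 cells.

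Of 20 tested genes among other glycolysis and pyruvate genes, 6 (30.0%) were higher and 8 (40.0%) lower in BMFA3 cells, and 7 and 7 (35.0% each) in CT1BA5 cells. Over all genes 29.2% and 29.9% were called in BMFA3 and 35.5% and 35.1% in CT1BA5 cells, so these shares are near the background. Dlat, a pyruvate dehydrogenase subunit gene, rose by 0.72 and 0.76, Pfkfb2, a further regulator of fructose 2,6-bisphosphate, was at -1.65 and -2.25, Tigar, a fructose bisphosphatase gene, at -0.79 in BMFA3 cells, and Bpgm, which makes 2,3-bisphosphoglycerate, at 1.08 in CT1BA5 cells. Between the tumours Bpgm was at 0.58, Pdhb, another pyruvate dehydrogenase subunit gene, at 0.38, and Pdk4, a relative of Pdk1, at -1.23. Of 7 pentose phosphate genes, 3 were higher and 3 lower in BMFA3 cells and 4 and 2 in CT1BA5 cells. G6pdx, the entry enzyme gene, was at 0.84 in BMFA3 cells and -0.57 between the tumours, Pgls at 0.36 and 1.06, and Tkt, the transketolase gene, at 0.39 in CT1BA5 cells, while Rpia was at -1.07 and -1.73 and Rpe at -0.46 and -0.18.

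Most tricarboxylic acid cycle genes rose. Of 17 tested, 12 (70.6%) were higher and 1 (5.88%) lower in BMFA3 cells, by small amounts (log2 median 0.26, highest 0.51). In CT1BA5 cells 13 (76.5%) were higher and none lower (median 0.52). Over all genes 29.2% were called higher and 29.9% lower in BMFA3 cells, and 35.5% and 35.1% in CT1BA5 cells. Sdhb, a succinate dehydrogenase subunit gene, was at 1.09 and Suclg1, a succinyl-CoA ligase subunit gene, at 0.88 in CT1BA5 cells, and Sdhc and Idh3g at 0.51 and 0.43 in BMFA3 cells. Between the tumours 9 (52.9%) were higher in CT1BA5 cells and 3 (17.6%) lower, where 25.5% and 25.3% of all genes were called. In that comparison Sdhb was at 0.69, Suclg2 at -0.44 and Ogdh at -0.23. Idh3a, an isocitrate dehydrogenase subunit gene, was at -0.19 in BMFA3 and 0.54 in CT1BA5 cells.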

How the data were processed

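RNA sequencing measured 7 libraries of PanMeso cells in 3 groups (parental n = 3, BMFA3 n = 2, CT1BA5 n = 2). The deposited table holds raw counts per Ensembl mouse gene, which the authors made from their reads. Per the submitters' processing notes, CASAVA, DESeq2 1.24.0 and mm10 were used, with no role given; no source used here names the aligner, annotation or strand setting. Symbols came from GENCODE M21 (GRCm38), which matched 54409 of 54532 identifiers. Aldoa has 2 identifiers, and the longer coding one was used.

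Genes were kept by filterByExpr (minimum count 10), scaled by TMM (factors 0.897 to 1.08) and fitted with 3 groups in edgeR 4.0.16 (R 4.3.3); quasi-likelihood F tests were adjusted by Benjamini-Hochberg at 0.05 over 13784 genes holding 99.9% of counts. Intervals are 95%, from each test's standard error. Near-identical copies held at most 1.55% of a member's counts, and adding them changed no member's call. The fit was tested on simulated data. DESeq2 1.42.0, limma 3.58.1 voom, other scalings and filters, and leaving out each library were tried.

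The members and gene lists were chosen with earlier results of these data known. All 33 members are named. Values in every library are given for 8 chosen members and the 4 largest changes per comparison with at least 10 CPM on average; those of Slc2a3, Eno2, Adm, Ankrd37, Slc16a1 and Epas1 beyond that rule were added after their values were seen. Of each further list, the 2 higher and 2 lower genes with the smallest p were named per comparison, except 1 gene that is not reported here; Arnt2, Hif1an and Egln2 were added to complete the HIF machinery.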

Additional observations from a re-analysis of the deposited data

Results flagged for a closer look

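All 33 genes and the further lists (7, 28, 33, 7 and 17 genes) were searched for opposite changes in the 2 tumours. In 6 genes the tumours moved in opposite directions from parental cells, each way past the threshold. The tumours also differed in these 6 in a test of that difference itself (edgeR quasi-likelihood, Benjamini-Hochberg adjusted). The share of all genes with this pattern was not computed. As 59.0%, 70.7% and 50.8% of all genes were called in the 3 comparisons, no excess can be read from the 6. On the log2 scale the CT1BA5 value minus the BMFA3 value was -3.05 for Adm, -3.02 for Slc16a1, -2.19 for Car12, -1.76 for Gbe1, -1.26 for Pfkfb3 and 0.73 for Idh3a. Adm, Car12 and Pfkfb3 are among the 33 genes, and Slc16a1, Gbe1 and Idh3a come from the further lists. The first 5 were higher in BMFA3 and lower in CT1BA5 than in parental cells, and Idh3a was the reverse. Of these, Adm rests on levels under 4 CPM, and its calls against parental cells were lost when single libraries were left out.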

How the results depend on the processing

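Each of 99 values, 1 for each of 33 members in 3 comparisons, was recomputed under 18 alternatives, and 68 kept their direction and their side of the threshold under all of them. With libraries scaled by size alone, the median of all genes moved by -0.0713 in BMFA3 cells and -0.234 in CT1BA5 cells against parental cells, and by -0.163 between the tumours. Under that scaling Gpi1 reversed to -0.0859 in CT1BA5 against parental cells (0.148 relative to the shift), Eno2 was called lower there at -0.27, and Pkm reversed to -0.1564 between the tumours (0.0064 relative to it). The medians of the enzymes became 1.0653, 0.9294 and -0.2698 and those of the other hypoxia targets 0.018 (CT1BA5 against parental) and -0.977 (CT1BA5 against BMFA3). Relative to the shift the enzymes stood at 1.14, 1.16 and -0.107 and the other targets at 0.252 and -0.814 in those comparisons. It also called 1 enzyme lower and 3 other targets higher in CT1BA5 cells, and between the tumours 0 members higher and 10 enzymes lower, where of 13784 genes it called 3495 higher and 6280 lower in CT1BA5 cells and 2371 higher and 4740 lower between the tumours. With a test against 1.5-fold (glmTreat), 5 other targets were higher in BMFA3 and 3 in CT1BA5 cells, and between the tumours 0 members were higher and 7 lower, with 1 enzyme and 5 other targets among the lower. Over all genes it called 1491 and 2301 higher against parental cells, and 786 higher and 1104 lower between the tumours. Between the tumours, DESeq2 called 0 members higher (3187 of all genes), and no count filter called 2 (3400 of 22898 genes), of which 1 was an other target. Leaving out 1 library at a time gave an enzyme median of 1.0892 to 1.1997 in CT1BA5 against parental cells. Between the tumours that median ran from -0.1734 to -0.0538. Where such a fit left a lone library in a group, it was assumed to vary like the other groups.

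Isozyme shares moved with the length used. With the longest transcript and then the coding length, in parental, BMFA3 and CT1BA5 cells, Hk2 held 19.2 and 24.0%, 28.9 and 35.0%, and 28.9 and 35.0%. Pfkl held 57.7 and 52.7%, 71.5 and 66.5%, and 68.0 and 62.7%, and Aldoc 0.472 and 0.972%, 1.44 and 2.93%, and 0.494 and 1.02%. Eno2 held 1.504 and 2.06%, 0.487 and 0.670%, and 0.519% with the longest transcript in CT1BA5 cells. Slc2a3 held 35.99% in parental and 6.28% in CT1BA5 cells with the coding length, and 5.34 and 9.74% in BMFA3 cells.

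The replicate numbers were not taken as pairs, because the labels do not say that they pair libraries. In deviations from group means, same-numbered parental and BMFA3 libraries correlated at -0.175 and -0.132, and parental and CT1BA5 ones at -0.227 and -0.0991. For BMFA3 with CT1BA5 the value was 0.146. In a group of 2 such deviations mirror each other, so these correlations cannot decide whether libraries were paired. With the replicate number as a block, 29 members were higher and 1 lower in BMFA3 cells, 24 and 5 in CT1BA5 cells, and 1 and 16 between the tumours. Over 13784 genes this block fit called 3472 higher and 3572 lower in BMFA3 cells and 4464 and 4403 in CT1BA5 cells. Between the tumours it called 3236 higher and 3242 lower. Depth limits Adm, Car9, Ankrd37 and Epas1 most, since their levels are a few CPM.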
